A study of Homo sapiens with 4 samples.

Results

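RBE is an established human cell line derived from intrahepatic cholangiocarcinoma, a cancer of the bile duct epithelium inside the liver. This account describes the change in its transcriptome after transfection with si-FENDRR, a small interfering RNA (siRNA) directed at FENDRR, a long noncoding RNA, beside transfection with si-NC, the negative control. Both were delivered with a Lipofectamine reagent, and RNA was taken 48 h later, so both libraries come from cells exposed to a transfection reagent and an RNA duplex. The series also holds LM3, a hepatocellular carcinoma line, treated in the same way, and has 4 libraries in all, 1 per line and transfection. The genes described are the 13981 of 58174 listed genes with at least 1 FPKM (fragments per kilobase, a level scaled to gene length and to library size) in either RBE library. Gene groups were described over 7813 of these, the protein-coding genes with a mean of at least 5 FPKM, of which 3807 share no exon base with another listed gene on either strand. The study asked what FENDRR does to gene expression in primary liver cancer. With 1 library per transfection no value has a replicate error, no test was possible, and every difference below describes this pair of libraries.

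FENDRR is transcribed from a shared promoter region in the opposite direction to FOXF1, which encodes a transcription factor of the lateral mesoderm and of the mesenchyme around the gut and lung. It is known for binding the Polycomb repressive complex 2, which places a repressive methyl mark on histone H3, and the MLL/Trithorax complexes, which place an activating one. Small interfering RNAs are loaded into Argonaute proteins and guide the cleavage of transcripts that match them, and they can also lower transcripts that match only their seed.

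The target could not be checked. FENDRR and FOXF1 were listed at 0 FPKM in both RBE libraries, and also in both LM3 libraries. Of the neighbouring genes, MTHFSD was at 8.82 FPKM with si-FENDRR and 9.22 with si-NC. GSE1 was at 8.25 and 5.50 FPKM and IRF8, a transcription factor best known from blood cells, at 5.08 and 3.60 FPKM. Of 9 genes of the FENDRR region on chromosome 16 that passed the mean of 5 FPKM, 5 were higher and 4 lower. C16orf74 differed most among them, at 16.03 against 9.87 FPKM. The complexes FENDRR is known to bind were present in RBE: EZH2, the catalytic subunit of Polycomb repressive complex 2, was at 9.09 and 9.28 FPKM, SUZ12 at 6.02 and 4.99 FPKM, EED at 9.14 and 11.7 FPKM, and WDR5 of the MLL complexes at 22.5 and 23.5 FPKM.

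The libraries matched the label of a biliary epithelial cell. Of 20 cholangiocyte markers 17 had a mean of at least 1 FPKM, and the summed level of the list was 4868 FPKM with si-FENDRR and 4690 with si-NC. Much of this sum was KRT8 (2028 and 1867 FPKM) and KRT18 (887 and 901 FPKM). The sum does not by itself set RBE apart from LM3, where KRT8 was at 1004 and 989 FPKM and SPP1 at 1118 and 909 FPKM. KRT7 (7.21 and 6.02 FPKM) and EPCAM (0.318 and 0.236 FPKM) were low in LM3. In RBE, KRT7 was at 429 and 391 FPKM, KRT19 at 467 and 466 FPKM, and EPCAM at 31.2 and 24.9 FPKM. The chloride channel gene CFTR was at 0.0209 and 0.0230 FPKM. Of 26 hepatocyte markers 13 reached 1 FPKM and 6 were listed at 0 in both libraries. Their sum was 181 and 221 FPKM, and SERPINA1 gave 56.8 and 82.5 FPKM of it. Fibroblast markers summed to 117 and 119 FPKM, nearly all of it ACTA2, and immune markers to 28.7 and 28.5 FPKM, nearly all of it CD68 and LYZ. None of 8 endothelial and none of 4 red cell markers reached 1 FPKM.

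The libraries had similar overall composition. The FPKM totals were 495869 with si-FENDRR and 508418 with si-NC, and 13558 and 13437 genes reached 1 FPKM. Read depth is unknown. The difference between the libraries is given throughout as log2(FPKM + 1) with si-FENDRR minus si-NC, which understates the fold of weakly expressed genes. Its median was 0.03 over the 13981 genes and 0.02 over the 7813 protein-coding genes, so the libraries were close to centred on each other. At the edge of the threshold of 1 FPKM, LINC01535 was included at 1.00 and 0.55 FPKM and AC136475.1 was left out at 0.9997 and 0.717 FPKM.

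The summed levels of RNA classes without a long poly(A) tail were lower with si-FENDRR. These classes were looked at after their values had been seen. The 5S ribosomal RNA genes, whose product is a small RNA of the large ribosomal subunit, summed to 121 FPKM with si-FENDRR and 264 with si-NC, a ratio of 0.46. All 16 copies that reached 1 FPKM were lower with si-FENDRR. These copies are nearly identical, so reads cannot be assigned among them and only the sum is informative. The 7SL RNA genes, which encode the RNA of the signal recognition particle, summed to 328 against 439 FPKM, and 7SK, the RNA that holds the elongation factor P-TEFb inactive, was at 96.0 against 122.7 FPKM. Small nucleolar RNAs (ratio 0.92) and histone cluster genes (ratio 0.94) were closer to 1, and their members went both ways. Of those that reached 1 FPKM, 32 small nucleolar RNAs were higher and 40 lower, and 13 histone genes were higher and 16 lower. In LM3 the same ratios were 1.65 for 5S, 1.33 for 7SL and 1.71 for 7SK, opposite to RBE. The kit enriches messenger RNA, and the part of residual RNA without a poly(A) tail in the differences of other genes was not tested.

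Most genes were close between the RBE libraries. Among all 13981 genes, 140 were at least 2-fold higher with si-FENDRR (1%) and 139 at least 2-fold lower (0.994%). Among the 7813 protein-coding genes, 64 were at least 2-fold higher (0.819%) and 64 at least 2-fold lower (0.819%). Smaller differences were counted from 25% upward, taking FPKM + 1 of the higher library over that of the lower one. By this measure 705 genes were at least 25% higher with si-FENDRR (9.02%) and 530 at least 25% lower (6.78%), and 4388 genes (56.2%) were higher by any amount. The last share depends on how the libraries are scaled: it was 63.9% with both scaled to the same FPKM total and 49.0% with median-of-ratios scaling, which sets the median ratio of the libraries to 1. In the 3807 protein-coding genes without a shared exon, 22 were at least 2-fold higher (0.578%) and 29 at least 2-fold lower (0.762%). These shares are the background against which the gene groups below are read. The spread was narrower at high levels. In protein-coding genes without a shared exon, percentiles 5 and 95 of the log2 change lay at -0.41 and 0.44 between 5 and 20 FPKM and at -0.24 and 0.29 above 100 FPKM.

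**Figure D1:**
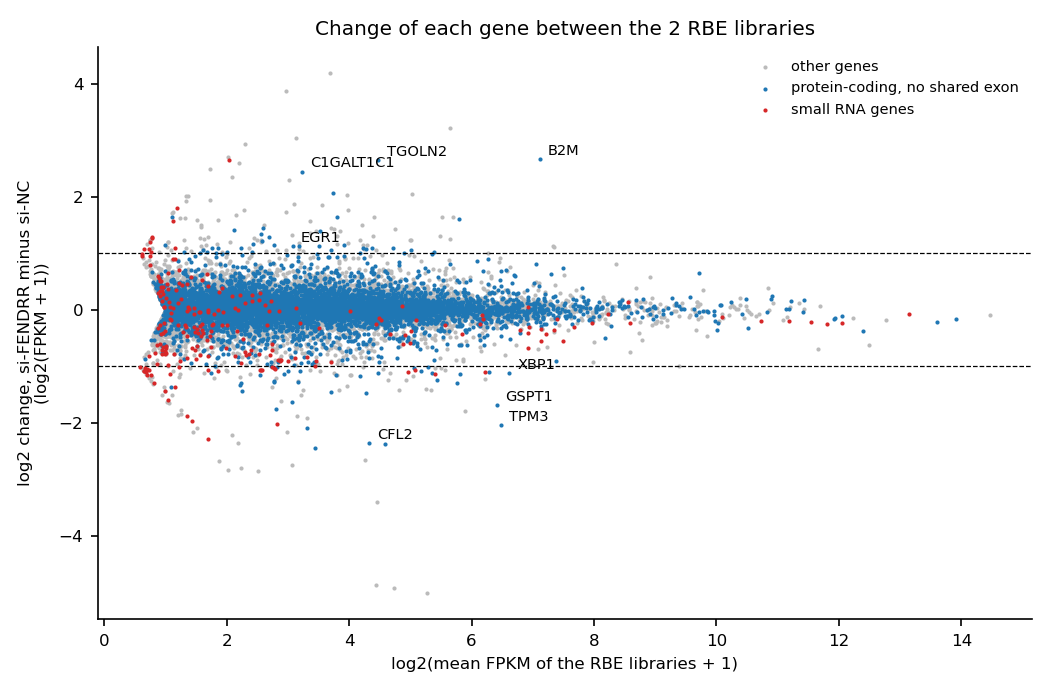
Change of each of the 13981 genes between the RBE libraries (vertical axis, log2(FPKM + 1) with si-FENDRR minus si-NC) against its mean level (horizontal axis, log2 of the mean FPKM + 1), 1 point per gene. Blue points are protein-coding genes without a shared exon, red points small RNA genes and grey points all others. Dashed lines mark 2-fold. The largest changes are grey, and most of the labelled genes are described in the text.

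The kinds of gene past 2-fold were uneven. Small RNA genes, which include ribosomal and transfer RNAs here, had 41 of 226 members past 2-fold (18.1%), 10 higher and 31 lower. Of the 31, 8 are copies of the 5S gene, which share reads and so repeat 1 signal, and 23 are others. Protein-coding genes had 1.76% past 2-fold, with 2.29% among those with a shared exon and 1.24% among those without. Long noncoding and other genes had 1.66% past 2-fold. MALAT1, an abundant nuclear long noncoding RNA, was at 28.8 and 33.7 FPKM, and NORAD, a cytoplasmic long noncoding RNA that binds Pumilio proteins, at 40.6 and 40.1 FPKM. Both were picked after their values had been seen. MIR222HG, the host gene of miR-221 and miR-222, was at 0.096 against 1.82 FPKM, the lowest change among long intergenic noncoding genes without a shared exon, and was also chosen after its value was seen.

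Genes without shared exons give the readings least open to reads being split between genes, and the 15 largest changes in each direction among them were taken by rule. B2M (GRCh38 chr15:44711477-44718877), the light chain of class I major histocompatibility molecules, was at 238 FPKM with si-FENDRR and 36.5 with si-NC, a log2 change of 2.67. TGOLN2 (chr2:85318020-85328425), a membrane protein cycling between the trans-Golgi network and the cell surface, was at 37.4 and 5.09 FPKM. C1GALT1C1, the chaperone of the enzyme that extends mucin-type O-glycans, was at 14.9 and 1.91 FPKM, with a log2 change of 2.45. These lead the higher side.

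CX3CL1 (chr16:57372458-57385048), the membrane-bound chemokine fractalkine, was at 20.5 against 4.11 FPKM. Its log2 change of 2.07 was the highest of the 18 cytokine and NF-kB genes used. SELENOF, a selenoprotein of the endoplasmic reticulum, was at 82.7 and 26.4 FPKM. FCF1, a factor of small ribosomal subunit assembly, was at 20.1 and 5.76 FPKM. The remaining higher genes include signalling and regulatory genes of moderate level: TEAD1, the DNA-binding partner of YAP, at 15.6 and 5.28 FPKM, FYN, a Src family kinase, at 8.46 and 3.26 FPKM, GRB2, the adaptor that links receptors to Ras, at 24.5 and 10.9 FPKM, and YTHDF2, a reader of N6-methyladenosine, at 14.5 and 6.11 FPKM. ALCAM, a cell adhesion molecule, was at 27.1 and 12.1 FPKM, and ZBTB38, SPIN1, EGR1 and FBXO28 complete the set.

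On the lower side, TRIM32, a ubiquitin ligase, had the largest change, at 2.38 FPKM with si-FENDRR and 17.3 with si-NC (log2 change -2.44). GCNT3 (chr15:59594875-59640239), a mucosal enzyme that branches O-glycans, was at 6.75 and 39.4 FPKM. CFL2 (chr14:34706769-34714823), a cofilin that severs actin filaments, was at 5.54 and 32.5 FPKM, and TPM3 (chr1:154155304-154194648), a tropomyosin that coats them, was at 33.9 and 143 FPKM. GSPT1 (chr16:11868128-11916082), the translation termination factor eRF3a, was at 39.3 and 129 FPKM.

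The related RNA-binding ubiquitin ligases MEX3C and MEX3D were both in the lower set. MEX3C was at 3.12 and 11.7 FPKM and MEX3D at 4.26 and 11.7 FPKM. ST6GAL1, which adds terminal sialic acid to N-glycans, was at 2.97 and 8.66 FPKM, so 3 of the 30 genes act in glycan building: C1GALT1C1 was higher, and GCNT3 and ST6GAL1 were lower. This grouping was made after the values were seen. The others were MED29, FOSL2, RALB, MAPK14, MPZL1, PPM1M and VAPA, of which MPZL1, a cell surface glycoprotein, was at 30.5 and 76.3 FPKM.

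**Figure D2:**
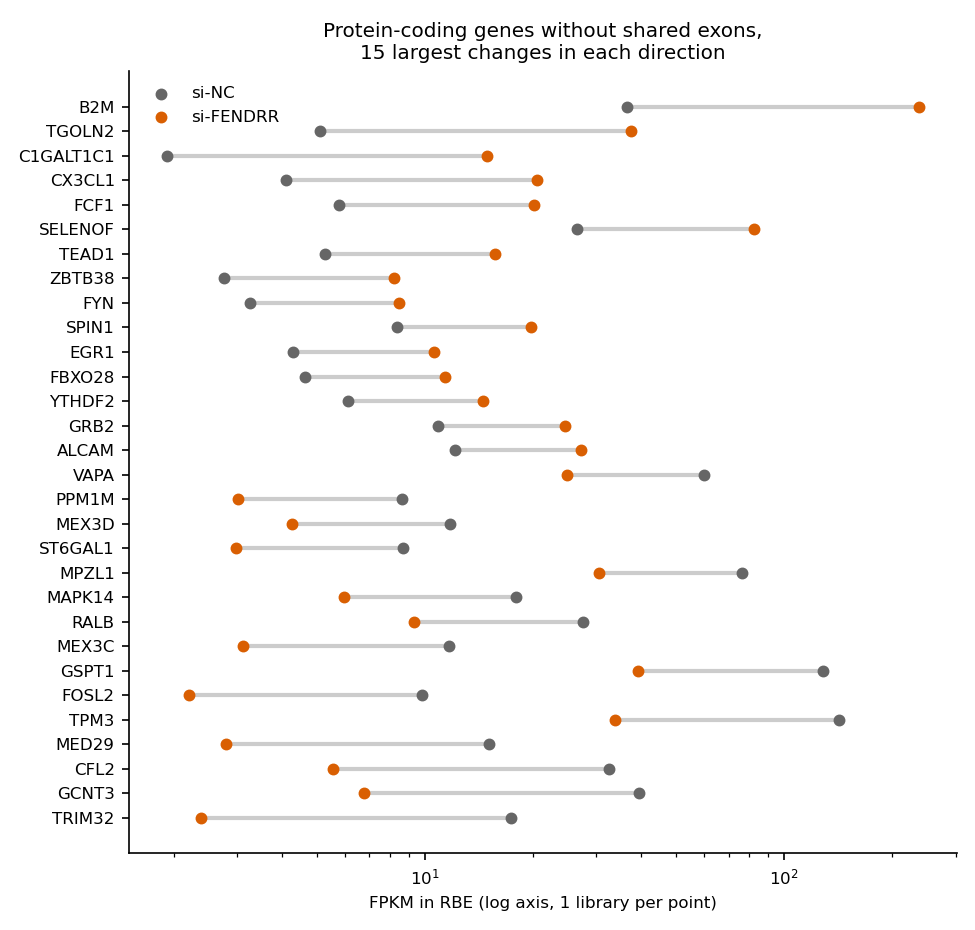
FPKM of 30 protein-coding genes without shared exons in the RBE libraries (horizontal log axis), 1 row per gene, with si-FENDRR in orange and si-NC in grey. The 15 upper genes are higher with si-FENDRR and the 15 lower genes are lower. Each point is 1 library, so no error can be drawn, and B2M spans the range from 36.5 to 238 FPKM.

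Immediate-early genes are transcribed within minutes of growth factor or stress signals, many of them through serum response factor (SRF), which binds the CArG box. EGR1, a zinc finger factor of this class, was among the genes most different between the RBE libraries, and its upstream sequence is shown because it holds CArG boxes. The letters CC, then 6 letters that are each A or T, then GG, which are the same pattern on both strands, were searched in the RefSeq windows of GRCh38.p14 from 250 bases before to 50 bases after each start. Of 35116 windows of this length, 1.29% held them. Of 41 windows of 31 immediate-early genes, 3 held them (7.32%), 1 each of EGR1, EGR2 and SRF itself. The capitals mark the CArG letters, and the stretches end at or before the start site.

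EGR1 (chr5:138465229-138465478, plus strand): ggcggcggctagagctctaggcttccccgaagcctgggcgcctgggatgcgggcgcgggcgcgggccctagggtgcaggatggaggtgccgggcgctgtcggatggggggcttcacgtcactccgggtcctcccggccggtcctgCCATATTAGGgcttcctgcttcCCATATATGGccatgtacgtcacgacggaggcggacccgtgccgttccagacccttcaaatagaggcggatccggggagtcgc
EGR2 (chr10:62816403-62816462, minus strand): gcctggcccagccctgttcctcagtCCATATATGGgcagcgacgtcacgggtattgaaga
SRF (chr6:43171214-43171268, plus strand): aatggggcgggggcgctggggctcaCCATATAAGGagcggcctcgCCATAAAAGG

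EGR1 was at 10.6 FPKM with si-FENDRR and 4.28 with si-NC, a log2 change of 1.14. Both other genes with these letters were near equal in the libraries: SRF was at 17.6 and 16.97 FPKM and EGR2 at 0.714 and 0.643 FPKM. FOS, the partner of JUN in the AP-1 factor, was at 25.1 and 11.3 FPKM, and DUSP6, a phosphatase that inactivates ERK, at 24.5 and 9.86 FPKM, and neither held the letters in this window. A match or its absence describes these letters only.

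Over the whole immediate-early list, 20 of 30 members used were higher (66.7%, against 56.2% of all), with 8 at least 25% higher and 4 at least 25% lower. The list median was 0.12. FOSL1, another AP-1 member, was at 63.9 and 45.3 FPKM, SPRY2, a feedback inhibitor of receptor signalling, at 41.8 and 29.8 FPKM, and IER3 at 107 and 83.4 FPKM. Against this direction, FOSL2 was at 2.20 and 9.84 FPKM, ZFP36, which marks AU-rich messenger RNAs for decay, at 3.29 and 7.36 FPKM, and PHLDA1 at 64.8 and 98.4 FPKM. The list therefore held some of the largest differences in both directions.

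Genes of the Hippo pathway had the highest list median of the 40 lists, but not when members with shared exons were left out, where their median was 0.12 and 4 lists had higher ones, up to 0.16 for the p38 and JNK stress kinases. In this pathway, the kinases LATS and MST hold the coactivators YAP and TAZ out of the nucleus, where they would act with TEAD factors. Of 27 members used 24 were higher with si-FENDRR (88.9%, against 56.2% of all), although only 3 were at least 25% higher and 1 was at least 25% lower. With median-of-ratios scaling 20 of the 27 were higher (74.1%, against 49.0% of all). The median log2 change was 0.14, against 0.02 for all 7813 genes. TEAD1 had the largest change (1.40). WWTR1, which encodes TAZ, was at 37.3 and 23.3 FPKM, while YAP1 was at 13.1 and 12.3 FPKM and TEAD4 at 13.6 and 11.1 FPKM.

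Of the 16 target genes of the Hippo list 14 were higher, most by little. AMOTL2 was at 29.2 and 19.6 FPKM and CYR61 at 40.0 and 33.0 FPKM. MYOF was at 66.5 and 53.9 FPKM, ANKRD1 at 36.8 and 33.0 FPKM, and CTGF at 44.2 FPKM in both. PTPN14, a target that restrains YAP, was the only member at least 25% lower, at 5.61 and 12.9 FPKM. TEAD1 was at 10.3 and 10.4 FPKM in LM3, where 17 of the 27 genes were higher and the median was 0.05. Of the 16 targets alone, 13 were higher in LM3, with a median of 0.15, beside 0.12 in RBE. Of the 11 pathway genes, 4 were higher in LM3, with a median of -0.03, beside 10 and 0.15 in RBE.

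Lysosomal genes were nearly all slightly lower. The lysosome is the acid compartment in which cathepsins, glycosidases and lipases degrade material delivered by endocytosis and autophagy. Of 32 lysosomal genes 29 were lower with si-FENDRR, 3 of them at least 25%, and none was at least 25% higher. Their median log2 change was -0.16 and their range -0.61 to 0.13, and 27 and 30 of them were lower under the 2 scalings. In LM3, 19 of the 32 were lower and the median was -0.02.

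The lysosomal proteases CTSH and CTSB were at 47.0 against 72.5 FPKM and 83.3 against 103 FPKM. CTSD was at 184 against 198 FPKM, and CTSZ at 89.1 against 88.0 FPKM. Of the glycosidases, GUSB was at 13.5 against 18.2 FPKM and HEXA at 28.0 against 33.9 FPKM. PSAP, the precursor of the saposins that aid lipid breakdown, was at 951 against 1123 FPKM. Subunits of the proton pump went the same way, with ATP6V1H at 36.0 against 42.0 FPKM and ATP6AP1 at 84.0 against 101 FPKM. TFEB, the transcription factor that drives lysosomal genes, was at 8.16 against 9.77 FPKM, and its relative TFE3 at 29.5 against 30.2 FPKM. CTSZ and NPC2 were among the exceptions, with log2 changes of 0.02 and 0.13. The autophagy genes of the same list did not share this direction: 15 of 21 were higher, with a median of 0.05 (18 and 12 of 21 under the scalings to total and to the median ratio), and ATG5, needed to form autophagosomes, was at 10.6 and 5.35 FPKM.

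The 13 messenger RNAs of the mitochondrial genome, which encode core subunits of the respiratory chain, were lower with si-FENDRR in 12 of 13 cases, 3 of them at least 25%. Their median log2 change was -0.17, the lowest of the 40 lists, and their share of all FPKM was 16.6% after si-FENDRR and 18.3% after si-NC. MT-CO1 was at 11533 and 13397 FPKM, MT-CO2 at 14493 and 16285 FPKM, and MT-ND3 at 4698 and 6080 FPKM. MT-ATP6, which overlaps MT-ATP8, was the exception at a log2 change of 0.02. The mitochondrial transfer RNAs (ratio 0.86) and ribosomal RNAs (ratio 0.93) were lower too, as were the 5S, 7SL and 7SK RNAs given above, and the part of library composition in this difference was not tested. In LM3 all 13 were higher, with a median of 0.29.

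Of the nuclear genes of oxidative phosphorylation 39 of 81 were higher (48.1%, against 56.2% of all), with a median of -0.01. The count was 50 of 81 with scaling to the same total and 31 of 81 with median-of-ratios scaling (38.3%, against 49.0% of all). By complex, 24 of 38 subunits and assembly factors of complex I were lower, and 7 of 9 of complex III were higher, but with scaling to the same total 18 of 38 and with median-of-ratios scaling 4 of 9 were. NDUFA6, an accessory subunit of complex I, was at 57.3 and 35.1 FPKM. Of 15 genes of fatty acid oxidation 12 were lower (9 with scaling to the same total), with a median of -0.04, and CPT2, the inner membrane carnitine transferase, was at 5.88 and 8.52 FPKM. Of 10 genes of fatty acid synthesis 8 were higher (6 with median-of-ratios scaling), with a median of 0.05, and ACACA, acetyl-CoA carboxylase, was at 51.3 and 33.8 FPKM.

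**Figure D3:**
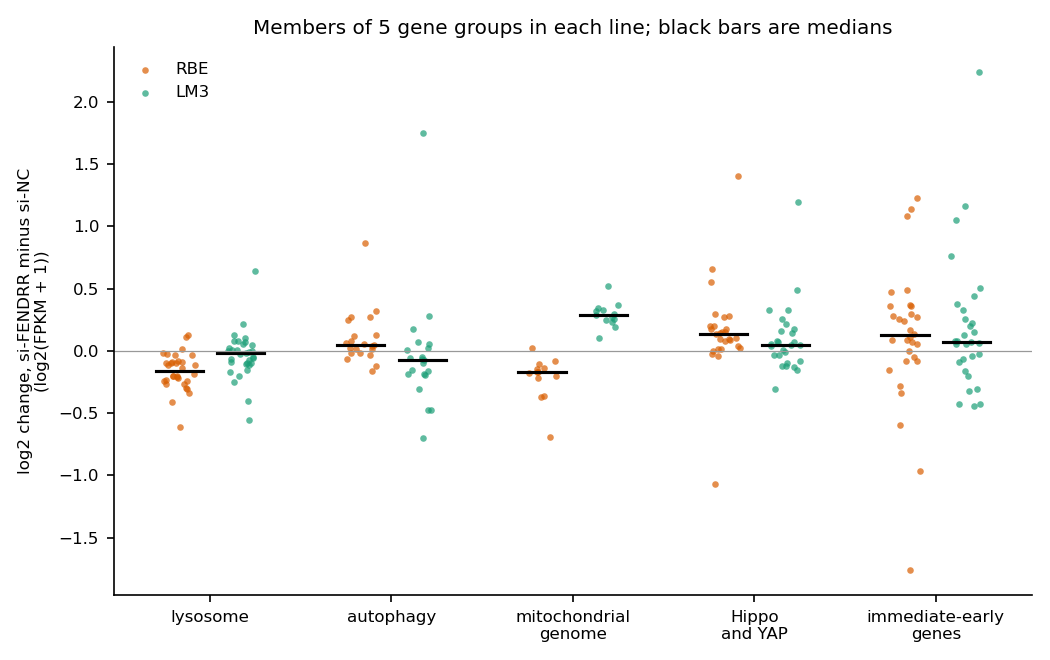
Log2 change with si-FENDRR minus si-NC (vertical axis, log2(FPKM + 1)) for the members of 5 gene groups in RBE (orange) and LM3 (green), 1 point per gene, spread sideways at random, with medians as black bars. In RBE the lysosomal and mitochondrial medians are -0.16 and -0.17 and the Hippo median is 0.14. The mitochondrial points are on opposite sides of 0 in the 2 lines, except MT-ATP6, which is above 0 in both.

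Genes of DNA replication and entry into S phase had a larger share of higher members than all genes. Of 49 used 35 were higher (71.4%, and 61.2% with median-of-ratios scaling), with 7 at least 25% higher, 2 at least 25% lower and a median of 0.10. GINS4, a subunit of the replicative helicase, was at 13.8 and 4.79 FPKM, GMNN, the licensing inhibitor geminin, at 26.2 and 14.8 FPKM, MCM5 at 20.8 and 14.6 FPKM, and CDK4, the kinase that opens G1, at 122 and 72.2 FPKM. CDK2, the kinase of S phase entry, was the other way, at 9.18 and 21.5 FPKM.

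Mitotic genes were mixed: 22 of 35 were higher (62.9%, against 56.2% of all). With median-of-ratios scaling 18 were higher (51.4%). Of the 35, 2 were at least 25% higher and 4 at least 25% lower, beside 9.02% and 6.78% of all. The Aurora kinases went opposite ways, with AURKA at 13.8 and 23.9 FPKM and AURKB at 21.0 and 13.7 FPKM. MKI67, the proliferation marker Ki-67, was at 4.96 and 6.79 FPKM. Of 26 apoptosis regulators 14 were higher (53.8%, near the 56.2% of all), and 12 with median-of-ratios scaling (46.2%). None was at least 25% higher and 3 were at least 25% lower. FAS, a death receptor, was at 11.3 and 21.1 FPKM.

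The actin cytoskeleton held large differences in both directions. Of 50 genes of actin and contractility 22 were higher (44%, against 56.2% of all) and 28 lower. Of them 8 were at least 25% higher and 7 at least 25% lower, beside 9.02% and 6.78% of all. The median was -0.03 (0.00166 with scaling to the same total). Beside CFL2 and TPM3, VCL, the adhesion protein vinculin, was at 26.8 and 55.9 FPKM and CFL1, the main cofilin, at 367 and 486 FPKM. On the higher side, ACTN4, a crosslinker, was at 222 and 102 FPKM, CAPZA1, a capping protein, at 69.4 and 28.5 FPKM, DSTN, the cofilin relative destrin, at 168 and 94.9 FPKM, and DIAPH1, a formin, at 34.6 and 19.5 FPKM. So the 3 genes of the cofilin family were split, CFL1 and CFL2 lower and DSTN higher.

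Genes of the Golgi and of vesicle transport were higher in 40 of 63 cases (63.5%, against 56.2% of all). With median-of-ratios scaling 31 were higher (49.2%), near the share of all genes under that scaling given above. Of the 63, 8 were at least 25% higher and 3 at least 25% lower, beside 9.02% and 6.78% of all. The median was 0.03. Next to TGOLN2 stood STX16, a syntaxin of the trans-Golgi network, at 18.1 and 5.94 FPKM, and SNX1, a sorting nexin of the retromer pathway, at 42.6 and 20.01 FPKM. VPS26A, a core subunit of retromer, was at 19.0 and 13.8 FPKM, and its partner VPS35 at 29.1 and 36.8 FPKM. RAB8A, a GTPase of exocytosis, was at 9.72 and 18.1 FPKM.

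Lists tied to the response to transfected RNA had medians near that of all genes, but single members differed. Of 12 interferon response genes 6 were higher, and the median was -0.00111. None of the 12 was at least 25% higher (9.02% of all genes) and 3 were at least 25% lower (6.78% of all). OAS1, a sensor of double-stranded RNA, was at 5.51 and 9.74 FPKM and IFITM3 at 124 and 158 FPKM. Of 10 genes of RNA interference and RNA sensing 5 were higher, with 2 at least 25% higher and 2 at least 25% lower. MAVS, the mitochondrial adaptor of RNA sensing, was at 6.54 and 11.6 FPKM. Of the 18 class I genes used, B2M included, 8 were higher, the median was -0.02, and HLA-C was at 14.3 and 39.7 FPKM. In the NF-kB list RELA, the p65 subunit, was at 22.2 and 48.3 FPKM, while 11 of 18 members were higher (61.1%, against 56.2% of all).

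Of the 38 Polycomb, MLL and DNA methylation genes 23 were higher (60.5%, but 44.7% with median-of-ratios scaling and 76.3% with scaling to the same total), 1 was at least 25% higher and 2 at least 25% lower, with a median of 0.01. KDM5B, a histone demethylase, was at 17.8 and 13.8 FPKM and PCGF2, a Polycomb repressive complex 1 subunit, at 17.04 and 23.3 FPKM. Wnt genes were split 8 to 8, none at least 25% apart, and Notch genes 7 to 7. Both splits move by up to 3 genes with the scalings. In the TGF-beta list 15 of 26 were higher (57.7%, against 56.2% of all, and 13 with median-of-ratios scaling). It held larger differences, 1 gene at least 2-fold higher and 2 at least 2-fold lower, beside 0.819% of all each way. TGFBR2, the type II receptor, was at 24.8 and 51.0 FPKM, and SMURF1, a ubiquitin ligase acting on the receptors, at 6.41 and 14.7 FPKM. TGIF2, a corepressor of SMAD proteins, was at 12.5 and 2.68 FPKM.

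The lists with the tightest members were heat shock proteins, with a range of -0.16 to 0.24 over 20 genes and none at least 25% apart, and Wnt genes, with a range of -0.22 to 0.24. Proteasome subunits were higher in 25 of 35 cases (71.4%, against 56.2% of all), and in 19 with median-of-ratios scaling (54.3%). None was at least 25% higher, and PSMD10, at 20.9 and 29.9 FPKM, was at least 25% lower. NRF2 targets had 19 of 29 higher (65.5%), and 15 with median-of-ratios scaling (51.7%). Of them 1 was at least 25% lower, AKR1C2 at 7.81 and 10.7 FPKM. Cytosolic ribosomal proteins had 45 of 79 higher (57.0%), and 36 with median-of-ratios scaling (45.6%). Their median was 0.02, with RPL23 at 286 and 480 FPKM. The list of epithelial junctions and keratins had 18 of 30 higher (60%), and 15 with median-of-ratios scaling (50%). In it KRT80 was at 100 and 52.9 FPKM and CLDN12 at 7.31 and 3.57 FPKM.

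Splicing regulators held 9 genes at least 25% higher and 5 at least 25% lower of 64, beside 9.02% and 6.78% of all protein-coding genes used. The muscleblind genes MBNL1 and MBNL2 were at 8.57 and 6.26 FPKM and at 17.4 and 8.58 FPKM. Of 24 hnRNP genes 12 were higher and 12 lower (17 higher with scaling to the same total). HNRNPR was at 41.8 and 27.0 FPKM and HNRNPH1 at 88.2 and 63.8 FPKM. The other way went HNRNPA2B1, at 116 and 183 FPKM, and HNRNPH2, which shares exons with another gene, at 4.22 and 32.0 FPKM. QKI, a regulator of circular RNA formation and of exon choice, was at 7.41 and 12.7 FPKM, and SRSF4 at 4.93 and 9.86 FPKM. In the list of translation and decay factors, EEF1A1, the elongation factor, was at 4565 and 7002 FPKM. It has many processed pseudogenes that are near-identical, so its level is uncertain.

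**Figure D4:**
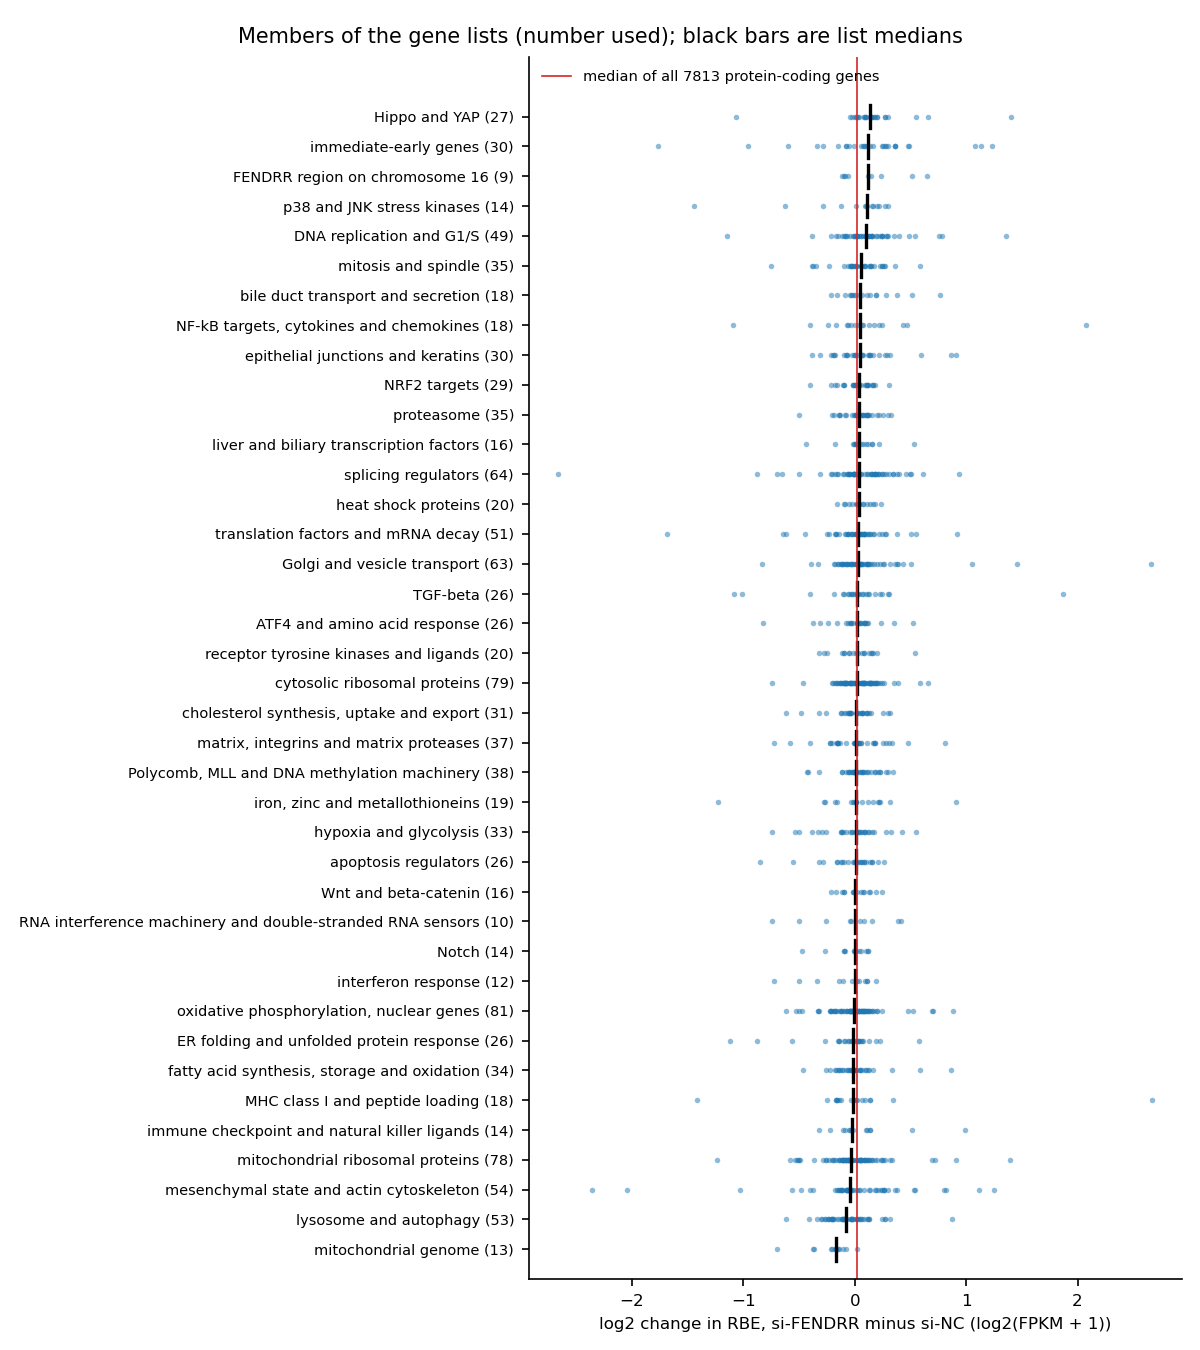
Log2 change in RBE (horizontal axis, log2(FPKM + 1) with si-FENDRR minus si-NC) of the members of 39 gene lists, 1 point per gene and 1 row per list, with the number used in brackets. Black bars are list medians and the red line is the median of all 7813 protein-coding genes, 0.02. List medians run from -0.17 for the mitochondrial genome to 0.14 for Hippo and YAP, and most rows are centred on the red line.

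Genes that share exons with another gene on their strand were common among the largest differences. Of all 13981 genes 16.8% share exons on their strand, and of the 279 genes at least 2-fold apart 40.9% do, which is 114 genes. A partner with at least 1 FPKM was found for 99 of these, and the most abundant was taken where there were several. The partner differed in the opposite direction in 60 of the 99 and in the same direction in 39. The same split was not counted over overlapping pairs that were not selected. When the FPKM of gene and partner were multiplied by their exon lengths and summed, 12 of the 99 sums were at least 2-fold apart. The median size of the log2 change was 1.59 for the gene alone and 0.22 for the sum. The genes were chosen for being past 2-fold and the partners for being abundant, so the sum mostly follows the partner. A smaller change of the sum was therefore likely in advance and does not show that reads moved between the genes.

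The largest differences of all include such genes. RPL36A-HNRNPH2 was at 0.682 and 50.3 FPKM beside RPL36A at 373 and 326 FPKM, with a log2 change of 0.16 for the sum. It also shares exons with HNRNPH2, which was lower too, at 4.22 and 32.0 FPKM. The sum of that pair had a log2 change of -3.43. AC096677.3 was at 0.421 and 40.7 FPKM beside PHLDA3, with 0.50 for the sum, and AC093525.2 at 23.5 and 0.342 FPKM beside ATP6V0C, with -0.03 for the sum. AP005202.1, with the lowest log2 change of all (-5.01, at 1.33 and 74.1 FPKM), shares no exon but is a processed pseudogene, so reads may be split with its parent gene and its level is uncertain.

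Several of these are readthrough genes, which join the exons of neighbouring genes. COMMD3-BMI1 was listed at 0 with si-FENDRR and at 6.15 FPKM with si-NC, while COMMD3 was at 30.8 and 35.4 FPKM, and the log2 change of the sum was -0.34. AP000275.2 was at 7.72 and 0.137 FPKM and its partner C21orf59 at 14.2 and 14.8 FPKM, with 0.16 for the sum. AC010132.3 was at 0.389 and 9.02 FPKM beside the proteasome gene PSMA2 at 65.7 and 54.9 FPKM, with 0.13 for the sum. PCDHGB3, of the clustered protocadherins that share their last exons, was at 6.09 and 0.388 FPKM and PCDHGB5 at 8.46 and 17.4 FPKM, with -0.30 for the sum. Because their exons are shared, their single-gene values are uncertain.

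**Figure D5:**
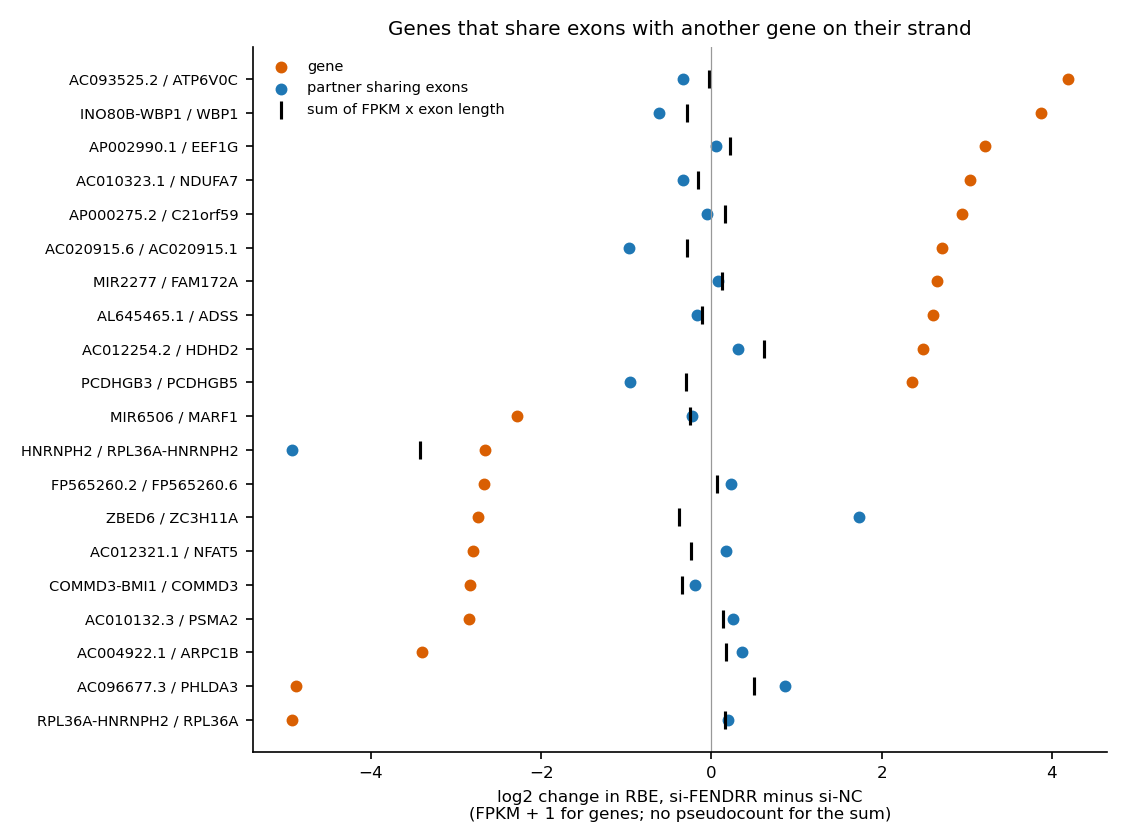
Log2 change in RBE (horizontal axis, si-FENDRR minus si-NC) of 20 genes that share exons on their strand (orange), of the partner (blue) and of the sum of FPKM times exon length over both (black bar), 1 row per gene and partner. The genes are the 10 highest and 10 lowest with a partner of at least 1 FPKM. Black bars lie nearer 0 than the orange points in all rows but 1, HNRNPH2 with RPL36A-HNRNPH2 at -3.43.

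The genes without shared exons were set beside LM3, where 14191 genes reached 1 FPKM. The 51 that were at least 2-fold apart in RBE went the same way in LM3 in 34 cases (66.7%), against 50.2% of all 3807. In LM3, 11 of the 51 were also at least 2-fold apart (21.6%), against 1.31% of all 3807. Of these 11, 5 went the same way in both lines: CFL2, GSPT1, MAPK14 and NRSN2 were lower and TGOLN2 higher with si-FENDRR. In LM3, GSPT1 was at 22.8 and 65.5 FPKM, CFL2 at 9.34 and 30.9 FPKM, MAPK14 at 5.44 and 13.7 FPKM and TGOLN2 at 46.1 and 9.06 FPKM.

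The other 6 genes went opposite ways: B2M, MED29, RALB, SPIN1, TGFBR2 and VAPA. RALB, a Ras-like GTPase of vesicle tethering, was at 9.29 and 27.5 FPKM in RBE and at 32.3 and 11.5 FPKM in LM3. VAPA, which anchors lipid transfer proteins to the endoplasmic reticulum, was at 24.8 and 59.7 FPKM in RBE and at 78.6 and 27.9 FPKM in LM3. The difference between the lines was not tested. Other leading genes of RBE differed little in LM3. C1GALT1C1 was at 21.0 and 19.96 FPKM there, GCNT3 at 9.08 and 10.1 FPKM, SELENOF at 33.9 and 31.9 FPKM, and MPZL1 at 13.2 and 12.9 FPKM. CX3CL1 was at 0.825 and 1.06 FPKM in LM3, near the threshold of detection used here.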

How the data were processed

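Per the labels' protocols, RNA of RBE cells was taken 48 h after transfection and sequenced after library preparation with an mRNA kit. Per the submitters' processing notes, reads were handled with FastQC and HISAT2 and the build was hg38. Not given in the sources used here: versions, the strand setting, the program that estimated expression and its annotation. The authors deposited FPKM, per the file headers, with no read counts. Low values were within 0.02 of whole multiples of 1 step in 16.7% and 17.4% of cases, so reads were not recovered, depth is unknown and no counting interval is given.

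From these values, log2(FPKM + 1) with si-FENDRR minus si-NC was computed in Python 3.11.15 with pandas 2.3.3, for genes of at least 1 FPKM in either RBE library. Gene lists used protein-coding genes with a mean of at least 5 FPKM. Gene types, exon lengths, coordinates and exons shared by at least 1 base came from GENCODE release 29 (GRCh38), which holds 57836 of the 58174 listed identifiers. With 1 library per transfection nothing was tested. No scaling was applied beyond that in the FPKM. The counting steps were tested on simulated data.

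The text names the target and its neighbours, the 15 largest changes per direction among protein-coding genes of mean 5 FPKM without shared exons, the 10 largest per direction among all genes with their partners (most in the plot of shared exons), list members at least 1.5-fold apart (up to 5 per direction, otherwise the highest and lowest), the 10 most abundant genes and abundant markers. Further list members are named as examples of their list. The members and lists were chosen with earlier results of these data known. Alternatives were other pseudocounts, filters, scalings and thresholds. Some named genes and 1 list are not reported here.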

Additional observations from a re-analysis of the deposited data

Results flagged for a closer look

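Each line has 1 library per transfection, and the difference between the lines was not tested. Only the 207 named genes were counted here, so further such genes exist, SNORD5 among them (log2 changes of -1.88 in RBE and 1.89 in LM3). Some of the 207 named genes were at least 2-fold apart in the same direction in both lines, and these were not flagged. They include CFL2, GSPT1, MAPK14, TGOLN2, TGIF2 (log2 changes of 1.87 in RBE and 1.73 in LM3) and MRPL30 (1.39 and 1.14). Flagged were the 13 that were at least 2-fold apart in both lines and in opposite directions. Of those without shared exons, MED29, a Mediator subunit, had a log2 change of -2.08 in RBE and 2.14 in LM3, RALB -1.47 and 1.42, VAPA -1.24 and 1.46, TGFBR2 -1.01 and 1.09, SPIN1, a reader of histone methylation, 1.15 and -1.29, and B2M 2.67 and -2.57.

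The other 7 share exons with another gene on either strand. ZBED6 had log2 changes of -2.74 in RBE and 3.05 in LM3, and ZC3H11A, which shares most of its exon bases, 1.74 and -2.09, while the sum of both, weighted by exon length, had -0.38 in RBE. FP565260.2, listed at 0 in 1 library of each line, had -2.67 and 2.30. MRPL34, a mitochondrial ribosomal protein, had -1.24 and 1.37, and SLC39A1, a zinc importer, -1.22 and 1.80. AC020915.6 had 2.71 and -3.31, and AC010323.1 had 3.04 and -1.86. With the partner on their strand added in the same way, the RBE values of FP565260.2, AC020915.6 and AC010323.1 were 0.07, -0.29 and -0.16.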

How the results depend on the processing

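The counts of genes at least 2-fold apart in RBE, 140 higher and 139 lower, depended on the pseudocount and on the set of genes. With a pseudocount of 0.1 they were 287 and 289, and with 5 they were 39 and 44. With at least 5 FPKM in either library they were 87 and 89, with a mean of at least 5 FPKM 67 and 74, and over protein-coding genes without shared exons 38 and 35. At 1.5-fold they were 492 and 473. With a pseudocount of 0.5, no filter, scaling to the same FPKM total, median-of-ratios scaling, centring on the median, and protein-coding genes only, the counts stayed within 1.5 times.

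Scaling to the same total shifted log2 changes by 0.04 and median-of-ratios scaling by -0.03. Of 42 list medians, with the lysosomal and autophagy genes also taken apart, 8 changed sign under the first scaling, 13 under the second, 6 without shared exons, 4 with members of a mean of at least 1 FPKM and 1 with a pseudocount of 5. None did with pseudocounts of 0.1 and 0.5 or with members of at least 5 FPKM in either library. The largest shift of a list median was 0.18, without shared exons. The lysosomal median was -0.13 and -0.19 under these scalings, and -0.20 without shared exons. The direction of a 2-fold change could not be checked by these settings. A pseudocount cannot turn a change round, and the scalings shift it by too little. With pseudocounts of 0.1, 0.5 and 5, 16, 10 and 25 of the 207 named genes moved by more than 1.5-fold. No paired analysis was possible because each transfection has 1 library in RBE, and for the same reason no replicate could be left out. Without read counts, the counting error of weakly expressed genes is unknown.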
